A study of Homo sapiens with 12 samples.

Results

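The apolipoprotein L genes APOL1, APOL2, APOL3, APOL4 and APOL6 were taken by their symbols from tables of RNA-seq counts, as 5 of the 39368 symbols listed for each of 2 cell lines. CAL27 and HSC3 are established HPV-negative head and neck squamous cell carcinoma lines. All cells, controls included, carried tet-MUC1shRNA, an shRNA against MUC1 whose expression is switched on by doxycycline (DOX). Each line was treated for 7 days with vehicle (0.1% DMSO) or with 500 ng/ml DOX, and 3 libraries were made from each of the 4 groups. No DOX-treated libraries from cells with a control shRNA were analysed here, so an effect of MUC1 silencing and an effect of DOX or of shRNA expression cannot be told apart. Cells were cultured in triplicate, and p values measure the spread between these cultures of 1 engineered population of each line.

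The APOL proteins share a membrane-active region and take their family name from the first member. APOL1 is secreted and circulates on high-density lipoprotein, where it lyses African trypanosomes, and it is also found inside cells. The other members lack the export signal and stay in the cell. APOL3 is known for dissolving the membranes of bacteria that have entered the cytosol of interferon-treated cells, APOL6 for a BH3-like region and for causing cell death when overexpressed, and APOL2 for its place at the endoplasmic reticulum, while less is known of APOL4. Interferons and tumour necrosis factor induce several of these genes in epithelial and endothelial cells.

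In GENCODE v44 on GRCh38 the family lies on chromosome 22, with APOL3 (36140329 to 36166177, minus strand), APOL4 (36189124 to 36204840, minus strand), APOL2 (36226209 to 36239954, minus strand) and APOL1 (36253071 to 36267530, plus strand) inside 127 kb. APOL6 (35648446 to 35668404, plus strand) lies apart from them, with 472 kb between its end and the start of APOL3. No exon of the members overlapped an exon of another gene on either strand. Of all 50-base stretches of their transcripts, 0.381% of APOL1, 0.139% of APOL2 and 0.138% of APOL3 were also found in another APOL gene, and none of APOL4 or APOL6. Counting stretches found in any other gene, the shares were 4% for APOL1, 1.42% for APOL2, 0.138% for APOL3, 5.08% for APOL4 and 0.379% for APOL6. Counts that rest on shared reads are uncertain to that extent.

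The libraries held 92866845 to 126328662 counts in CAL27 cells and 89730914 to 169065103 in HSC3 cells. Several counts can stand for 1 molecule, with estimates of 2.66 to 3.55 counts per molecule in CAL27 cells, 4.40 to 7.66 in HSC3 cells with vehicle and 9.14 to 17.5 in HSC3 cells with DOX, the highest in HSC3 DOX library 1. MUC1, the targeted gene, fell from 55.3 ± 2.79 to 2.98 ± 0.249 CPM (counts scaled to a common library size; SD, n = 3) in CAL27 cells and from 1.76 ± 0.186 to 0.236 ± 0.0928 (SD, n = 3) in HSC3 cells. All 9 squamous epithelial markers examined were detected in every group. Their summed level was 6524 to 6805 CPM with vehicle and 3183 to 3420 with DOX in CAL27 cells, and 6451 to 7239 and 3090 to 3664 in HSC3 cells. KRT5 made up most of the CAL27 sum, at 3701 ± 78.6 CPM with vehicle and 1786 ± 48.6 with DOX (SD, n = 3). In each line 6 of the 9 fell and EPCAM rose, by 0.40 in CAL27 and by 0.87 in HSC3 cells (log2, edgeR adjusted p = 6.7e-06 and 2.8e-05). Of all genes tested, 21.8% fell in CAL27 cells, and 15.4% fell and 13% rose in HSC3 cells, at an adjusted p under 0.05. Among markers of other cell types, PTPRC of leukocytes had a mean of at most 0.0579 CPM in any group and the fibroblast collagen COL3A1 was at 0 in all, while in vehicle-treated CAL27 cells the monocyte marker CD14 was at 4.70 ± 0.248 CPM and the collagen COL1A1 at 8.40 ± 0.511 (SD, n = 3).

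With vehicle, all 5 APOL genes had higher levels in CAL27 than in HSC3 cells. Levels are given first as CPM, normalized by the TMM method over all 12 libraries, which compares a gene between libraries but not with another gene. APOL1 was at 177, 170 and 182 CPM in the CAL27 libraries and at 6.97, 6.14 and 6.42 in the HSC3 libraries. APOL2 was at 129, 135 and 132 CPM in CAL27 cells and at 9.44, 7.10 and 6.01 in HSC3 cells. Both genes were thus in separate ranges in the lines, and their log2 difference, HSC3 minus CAL27, was -4.76 (standard error 0.0844, edgeR adjusted p = 8.9e-16) for APOL1 and -4.13 (standard error 0.126, edgeR adjusted p = 2.6e-13) for APOL2.

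The difference was smaller for APOL3 and smaller again for APOL6. APOL3 was at 33.1, 33.0 and 34.7 CPM in CAL27 cells and at 8.45, 7.26 and 6.68 in HSC3 cells, a log2 difference of -2.17 (standard error 0.121, edgeR adjusted p = 3.0e-10). APOL6 was at 380, 353 and 381 CPM in CAL27 cells and at 207, 202 and 227 in HSC3 cells, a log2 difference of -0.81 (standard error 0.0681, edgeR adjusted p = 4.1e-08). Again no HSC3 library reached the CAL27 range. APOL6 was therefore the member whose vehicle level was nearest between the lines among the 4 that were counted in both.

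APOL4 was scarce in CAL27 cells and not detected in vehicle-treated HSC3 cells. It had 117, 74 and 99 counts in the CAL27 libraries and 0 in each of the 3 HSC3 libraries. It was lower in HSC3 cells in the edgeR fit, which tests against no difference (edgeR adjusted p = 5.0e-06). Against a floor of 3 counts in each HSC3 library, which is 0.0292 CPM, it was at least 26.8-fold higher in CAL27 cells. This bound was not tested. That floor takes each count as 1 molecule, and with a floor of 3 molecules per library, or 13.2 to 23.0 counts at the estimated counts per molecule, it was at least 4.40-fold higher, an alternative chosen after seeing the data. Both cover counting error only. A level below these floors in HSC3 cells was not detectable at this depth.

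Of the 5 members, 5 passed an adjusted p of 0.05 as lower in HSC3 cells, where 32.3% of all 20694 genes tested did, and 4 were past a 2-fold difference, where 18.7% of all genes were. All 5 had HSC3 libraries below every CAL27 library, as had 40.1% of all genes. Their median log2 difference was -4.13, and that of all genes -0.12. The lines also differed in growth medium, so line, medium and any library batch cannot be told apart here.

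**Figure D1:**
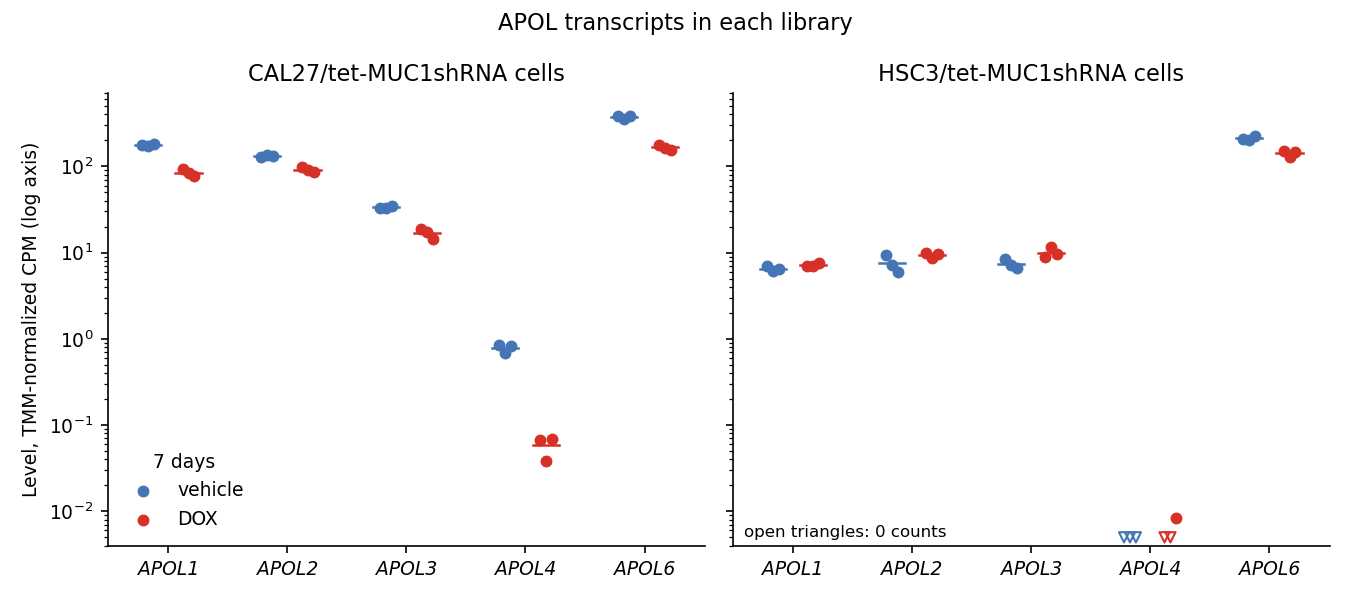
Levels of the 5 APOL genes in each of the 12 libraries, as TMM-normalized CPM on a log axis, in CAL27 cells (left) and HSC3 cells (right). Points are libraries, bars are means of 3, and open triangles mark libraries with 0 counts. APOL1 and APOL2 stood above 77 CPM in all CAL27 libraries and below 10 CPM in all HSC3 libraries, while APOL6 stood above 128 CPM in all 12.

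To compare the genes with each other, CPM was divided by the kilobases of each gene's exons. On this scale vehicle-treated CAL27 cells had 51.0 ± 1.73 CPM per kb of APOL1 (SD, n = 3), 38.6 ± 0.863 of APOL2, 36.9 ± 1.59 of APOL6, 5.69 ± 0.158 of APOL3 and 0.177 ± 0.0198 of APOL4. APOL1 was above each of the others in every library, and APOL2 and APOL6 overlapped, at 37.8 to 39.5 and 35.0 to 37.9 CPM per kb. With the length of the longest transcript in place of all exons, the level of APOL2 was 49.1 CPM per kb and no longer overlapped that of APOL6.

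Vehicle-treated HSC3 cells had another order. APOL6 was at 21.1 ± 1.31 CPM per kb (SD, n = 3), APOL2 at 2.201 ± 0.512, APOL1 at 1.88 ± 0.122 and APOL3 at 1.26 ± 0.153. APOL6 was above the rest in every library, and APOL1 and APOL2 overlapped. APOL3 lay below both, although with the longest transcript its 2.06 CPM per kb was within the range of APOL1. Of the summed APOL level per length, APOL6 made up 79.8% ± 2.89 in HSC3 cells and 27.9% ± 0.725 in CAL27 cells (SD, n = 3), and APOL1 made up 7.12% ± 0.368 and 38.5% ± 0.500.

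**Figure D2:**
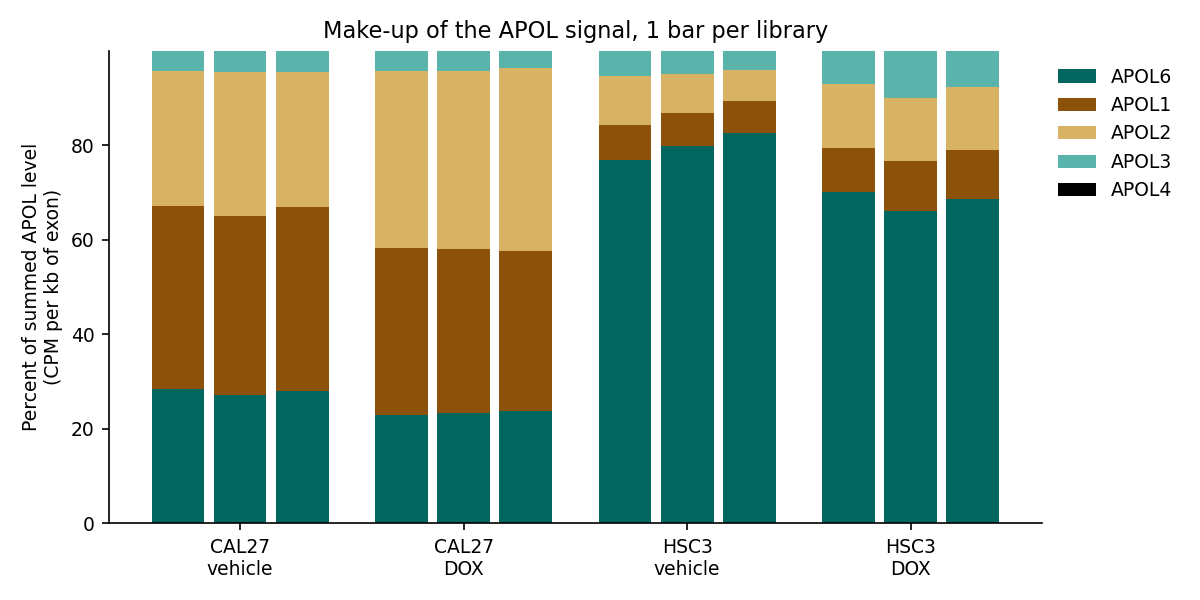
Share of each APOL gene in the summed APOL level (CPM per kb of exon, in percent), with 1 bar for each library. APOL6 made up 76.8% to 82.6% with vehicle and 66.2% to 70.0% with DOX in HSC3 cells, and 27.1% to 28.5% and 23.0% to 23.7% in CAL27 cells. APOL4 is too scarce to be seen.

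In CAL27 cells all 5 APOL genes fell with DOX. APOL1 went from 177, 170 and 182 CPM with vehicle to 93.3, 82.9 and 77.2 with DOX, or -1.07 on the log2 scale (standard error 0.0538, edgeR adjusted p = 9.3e-11). APOL6 went from 380, 353 and 381 CPM to 177, 163 and 157, or -1.17 on the log2 scale (standard error 0.0443, edgeR adjusted p = 5.6e-14). The DOX libraries of both genes were all below the vehicle libraries, at 0.478 of the vehicle level for secreted APOL1 and 0.445 for the death-associated APOL6.

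APOL3 went from 33.1, 33.0 and 34.7 CPM with vehicle to 18.8, 17.2 and 14.5 with DOX. Its change of -1.004 on the log2 scale (standard error 0.0728, edgeR adjusted p = 6.2e-09) sat on the 2-fold threshold of the study and moved to the other side of it without CAL27 vehicle library 3 or DOX library 6. APOL2, from 129, 135 and 132 to 98.2, 89.8 and 87.1 CPM, had the smallest change of the 5, at -0.53 on the log2 scale (standard error 0.0439, edgeR adjusted p = 5.4e-09). For neither gene did the groups overlap.

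APOL4 went from 117, 74 and 99 counts with vehicle to 7, 4 and 9 counts with DOX, or from 0.783 ± 0.0876 to 0.0585 ± 0.0172 CPM (SD, n = 3). On the log2 scale it changed by -3.71 (standard error 0.350, edgeR adjusted p = 3.2e-08). It was the member with the largest change in size and the lowest level, and at about 3 counts per molecule the DOX libraries held few molecules of it.

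As a group, 5 of 5 members were lower at an adjusted p under 0.05, where 21.8% of all 19239 genes tested in CAL27 cells were, and 4 were also past 2-fold, where 5.11% of all genes were. For all 5 the DOX libraries lay below the vehicle libraries, as they did for 25.9% of all genes. The median log2 fold change was -1.07 for the members and -0.01 for all genes. The summed APOL level per length fell from 132 ± 2.78 to 70.6 ± 5.43 CPM per kb (SD, n = 3). In bulk RNA, fewer cells with a transcript and less of it in each cell cannot be told apart.

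The APOL genes did not fall in proportion in CAL27 cells. Within a library, which no scaling between libraries can change, APOL2 was at 100.2% to 112.8% of APOL6 per length with vehicle and at 161.8% to 163.7% with DOX. APOL2 took the first place from APOL1 in order of mean level, at 26.8 ± 1.70 against 24.4 ± 2.37 CPM per kb (SD, n = 3) with DOX. APOL2 was above APOL1 in each of the 3 DOX libraries, at 37.6% to 38.7% against 33.9% to 35.3% of the summed level, although their ranges of CPM per kb overlapped between libraries. With the longest transcript these ranges were apart, at 32.4 to 36.6 for APOL2 and 25.7 to 31.1 CPM per kb for APOL1. APOL6 was then lower than both in every library, at 16.5 ± 1.01 CPM per kb. The ratios of the groups did not overlap, and an exact permutation test of 3 libraries against 3 cannot go below p = 0.1.

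In HSC3 cells APOL6 fell with DOX, and no other member tested passed the threshold. APOL6 went from 207, 202 and 227 CPM with vehicle to 151, 129 and 145 with DOX, with no overlap of the groups, as for 22.5% of all genes. On the log2 scale it changed by -0.59 (standard error 0.0744, edgeR adjusted p = 1.7e-04), at 0.665 of the vehicle level, which is short of 2-fold, a fall that 4.4% of all genes passed. No alternative changed the call or the direction of this fall.

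APOL3 had higher values with DOX in HSC3 cells and missed the threshold. It was at 8.45, 7.26 and 6.68 CPM with vehicle and at 8.96, 11.5 and 9.55 with DOX, with all DOX libraries above all vehicle libraries, as for 20.2% of all genes. The fitted change was 0.42 on the log2 scale (standard error 0.146, edgeR adjusted p = 0.054), and without HSC3 DOX library 1, the one with the most counts per molecule, it was 0.50 (edgeR adjusted p = 0.0071). Over all alternatives its adjusted p ran from 0.0071 to 0.19.

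APOL2 was at 9.44, 7.10 and 6.01 CPM with vehicle and at 9.89, 8.74 and 9.56 with DOX in HSC3 cells. These groups overlapped through vehicle library 1, and the change was 0.32 on the log2 scale (standard error 0.165, edgeR adjusted p = 0.19), or 0.52 (edgeR adjusted p = 0.041) without that library, with adjusted p values of 0.041 to 0.53 over all alternatives. APOL1 was at 6.97, 6.14 and 6.42 CPM with vehicle and at 6.97, 7.03 and 7.67 with DOX, so that the groups touched, and the log2 value was 0.14 (standard error 0.127, edgeR adjusted p = 0.47). APOL4 had 0 counts in 5 HSC3 libraries and 1 count in DOX library 3, and was not tested.

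Of the 4 members tested in HSC3 cells, 1 was lower at an adjusted p under 0.05, where 15.4% of all 18021 genes were, and 0 were higher, where 13% were. At an unadjusted p under 0.05 the edgeR count of higher members was 1, APOL3, where 17.6% of all genes were, and DESeq2 also gave 1, with an adjusted p of 0.021 for APOL3, where 16.1% of its genes were called higher. The median log2 fold change was 0.23 for the members and -0.01 for all genes. Within a library, APOL2 was at 7.80% to 13.4% of APOL6 per length with vehicle and at 19.3% to 19.98% with DOX. The summed APOL level per length went from 26.4 ± 1.11 to 20.6 ± 1.12 CPM per kb (SD, n = 3).

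**Figure D3:**
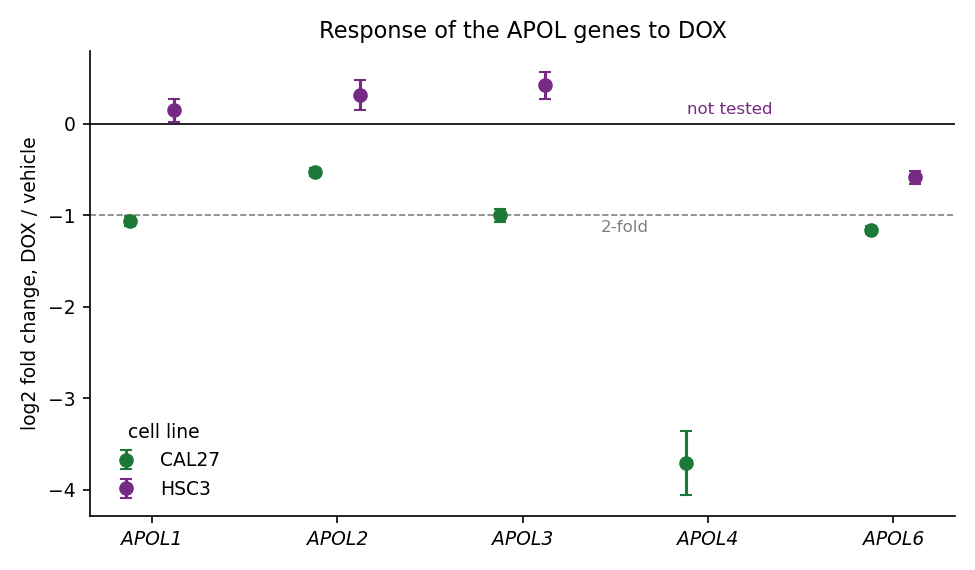
Log2 fold change with DOX for each APOL gene in CAL27 and HSC3 cells, where bars are the standard error of the edgeR fit and the dashed line marks a 2-fold fall. In CAL27 cells the changes ran from -0.53 (APOL2) to -3.71 (APOL4), and in HSC3 cells from -0.59 (APOL6) to 0.42 (APOL3), with APOL4 not tested there.

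The difference in response between the lines was tested as the interaction of line and DOX in a fit of all 12 libraries, which shares its libraries with the comparisons above. The effect of DOX in HSC3 cells minus that in CAL27 cells was 1.42 on the log2 scale for APOL3 (standard error 0.166, edgeR adjusted p = 2.2e-05) and 1.21 for APOL1 (standard error 0.106, edgeR adjusted p = 1.6e-06). It was 0.84 for APOL2 (standard error 0.160, edgeR adjusted p = 0.0014) and 0.58 for APOL6 (standard error 0.0959, edgeR adjusted p = 4.6e-04), the gene that fell in both lines. So 4 of 5 members passed an adjusted p of 0.05 with a positive difference, where 8.25% of all genes did. Of these, 2 (APOL1 and APOL3) were also past 2-fold, where 2.19% of all genes were. The fall seen in CAL27 cells was thus smaller in HSC3 cells for APOL6 and not called there for APOL1, APOL2 and APOL3. APOL4 missed the threshold (edgeR adjusted p = 0.11), and with 1 count in HSC3 cells no size is given for it.

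The neighbours of the APOL genes on chromosome 22 were examined for comparison. Of 16 listed neighbours, 13 were tested in CAL27 cells, where 3 fell and 6 rose with a median log2 fold change of 0.12. In HSC3 cells 12 were tested, where 2 fell and 3 rose with a median of 0.15. Of all genes tested, 21.8% fell in CAL27 cells, and in HSC3 cells 15.4% fell and 13% rose. The share of all genes that rose in CAL27 cells is not given here. RBFOX2, an RNA splicing factor that lies between APOL6 and APOL3, rose in CAL27 cells by 0.30 on the log2 scale (edgeR adjusted p = 1.0e-05) and by 0.24 in HSC3 cells (edgeR adjusted p = 0.026), a call lost on leaving out any 1 of the HSC3 vehicle libraries or DOX library 3. MYH9, the non-muscle myosin heavy chain gene next to APOL1, rose by 0.31 in CAL27 cells (edgeR adjusted p = 2.3e-06), while in HSC3 cells its log2 fold change was 0.15 (edgeR adjusted p = 0.18, or 3.9e-04 without DOX library 1).

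The neighbours that fell lay outside the span from APOL6 to APOL1, as did every listed neighbour but RBFOX2. RASD2, which encodes a small GTPase, has its midpoint at -101 kb from the start of APOL6. It changed by -0.93 in CAL27 and by -2.26 in HSC3 cells on the log2 scale (edgeR adjusted p = 1.2e-07 and 2.1e-04). In CAL27 cells HMOX1, the inducible heme oxygenase, had -0.52 (edgeR adjusted p = 0.0012). NCF4, a phagocyte oxidase subunit with 2 to 17 counts there, had -2.06 (edgeR adjusted p = 0.012, or 0.064 without vehicle library 2 and 0.056 without DOX library 5). Both calls were lost in 1 fit over 12 libraries (edgeR adjusted p = 0.066 for HMOX1 and 0.093 for NCF4). In HSC3 cells the replication licensing gene MCM5 fell by 0.68 (edgeR adjusted p = 8.7e-04) and the endosomal sorting gene TOM1 rose by 0.87 (edgeR adjusted p = 0.0082).

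**Figure D4:**
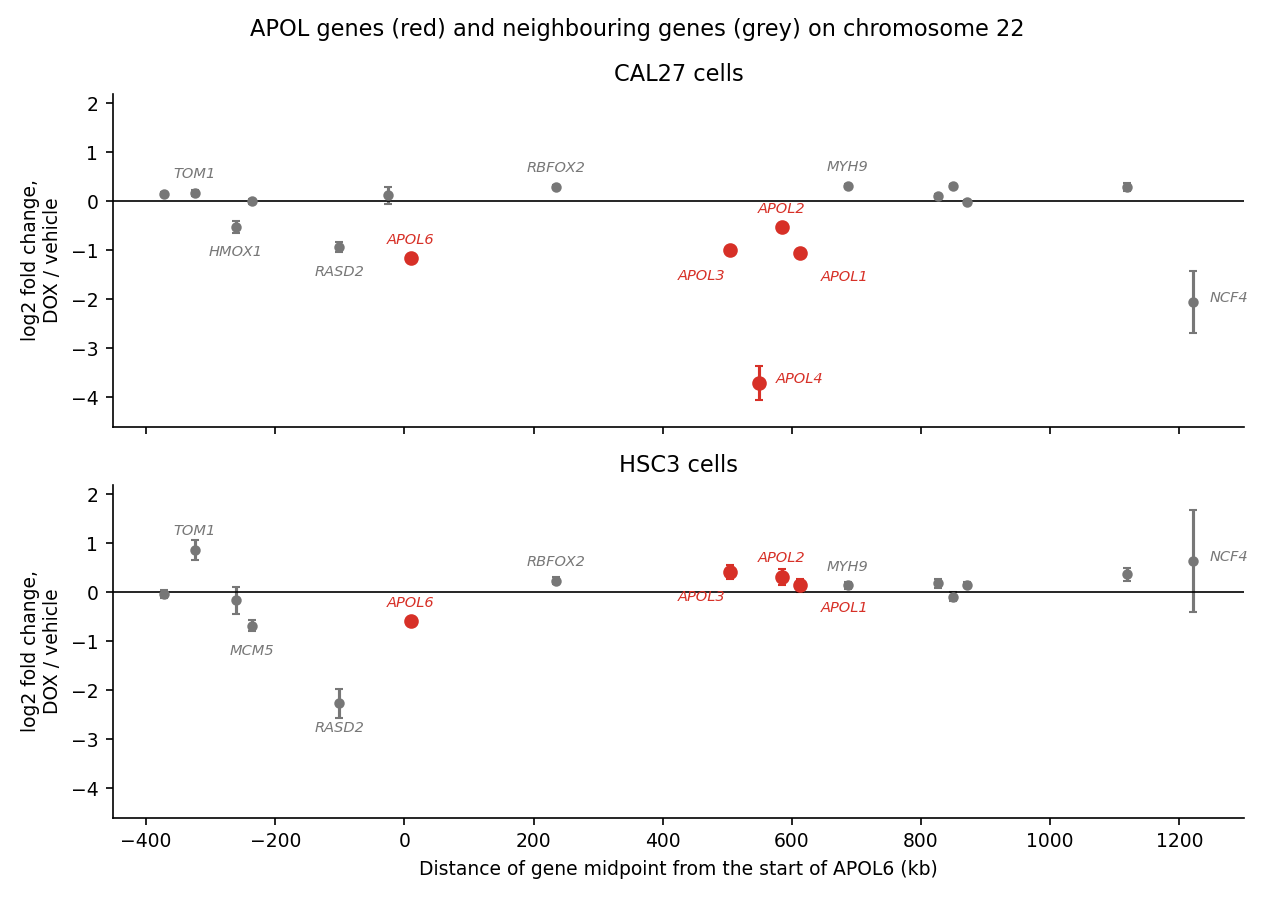
Log2 fold change with DOX of the APOL genes (red) and their tested neighbours (grey) against the distance in kb of each gene's midpoint from the start of APOL6, with standard errors as bars, in CAL27 cells (top) and HSC3 cells (bottom). In CAL27 cells RBFOX2 at 0.30 and MYH9 at 0.31 lie beside APOL genes at -0.53 and below, and RASD2, before APOL6, is at -0.93.

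Genes of the interferon pathway, which is known to induce APOL genes, were described beside them. STAT2, a signal-carrying transcription factor of the type I response, had a log2 value of -1.14 for DOX against vehicle in CAL27 cells (edgeR adjusted p = 8.9e-15) and of -0.29 in HSC3 cells (edgeR adjusted p = 0.018). The STAT2 call in HSC3 cells was lost without vehicle library 1 or DOX library 3 (edgeR adjusted p = 0.099 and 0.051). IRF1, the transcription factor that carries much of the interferon-γ response, fell by 0.72 in CAL27 cells (edgeR adjusted p = 3.6e-06). In HSC3 cells IRF1 was at 20.2 ± 1.90 CPM with vehicle and 24.03 ± 5.03 with DOX (SD, n = 3; log2 fold change 0.24, edgeR adjusted p = 0.28, or 0.41 with adjusted p = 0.0014 without DOX library 1). IRF9, a partner of STAT2, had 22 to 30 counts with vehicle and 0 to 6 with DOX in CAL27 cells (edgeR adjusted p = 0.0011). In HSC3 cells it had 12 to 13 and 4 to 21 counts (edgeR adjusted p = 0.71). The paper reports IRF9 mRNA and protein in CAL27 cells, with lower levels on MUC1 silencing. The cause of the few IRF9 counts here was not tested.

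In all, 12 of 17 receptor and signalling genes fell in CAL27 cells, and 7 fell and 1 rose in HSC3 cells. Their median log2 fold changes were -0.43 and -0.29. Of all genes tested, 21.8% fell in CAL27 cells, and in HSC3 cells 15.4% fell and 13% rose. Of 29 type I interferon-stimulated genes, 29 fell in CAL27 cells and 21 in HSC3 cells, with medians of -1.71 and -1.39. IFI44L, an antiviral response gene, had log2 fold changes of -4.13 and -3.64 (edgeR adjusted p = 1.0e-16 and 1.8e-06). In CAL27 cells XAF1, a pro-apoptotic gene, and MX2, an antiviral GTPase, had log2 fold changes of -3.36 and -3.22 (edgeR adjusted p = 2.6e-14 and 2.0e-05). In HSC3 cells OASL had 128 to 414 counts with vehicle and 0 to 14 with DOX, and CMPK2 had 74 to 146 and 0 to 2. The medians of the lists were the same with genes at or under 3 counts per library set to that floor. This had to be so, because those genes stayed below the median of their list.

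Genes that respond to interferon-γ and NF-κB fell in CAL27 cells in 23 of 25 cases, with a median log2 fold change of -1.02. In HSC3 cells 9 of 23 fell and 4 rose, with a median of -0.27. The shares of all genes were 21.8% lower in CAL27 cells, and 15.4% lower and 13% higher in HSC3 cells. The T cell attracting chemokines CXCL10 and CXCL9 changed by -3.57 and -3.39 (log2) in CAL27 cells (edgeR adjusted p = 8.6e-04 and 4.6e-07), and the guanylate-binding protein gene GBP5 had -2.83 (edgeR adjusted p = 7.1e-07). There CXCL9 had 64 to 90 counts with vehicle and 4 to 10 with DOX, and GBP5 had 75 to 90 and 8 to 15. The sizes for CXCL9 and GBP5 thus rest on few counts. In HSC3 cells with DOX, CXCL11 and GBP5 had 0 counts in all libraries, against 24 to 42 and 12 to 32 with vehicle, and CXCL10 had 0 to 18 against 72 to 124. The GBP5 call in HSC3 cells was lost without vehicle library 2 or 3 (edgeR adjusted p = 0.073 and 0.094).

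Beside these lists, the 4 APOL genes tested in HSC3 cells had a median of 0.23 where the type I interferon-stimulated genes had -1.39, and the 5 tested in CAL27 cells had -1.07 where those had -1.71. With vehicle, 27 of the 29 type I genes were lower in HSC3 than in CAL27 cells and 2 were higher. Of all genes, 32.3% were lower. The median log2 difference of the type I genes was -2.66, beside -4.13 for the APOL genes. In the interaction 19 type I genes had a positive and 4 a negative difference, where 8.25% of all genes had a positive one. The median was 0.73, beside 1.21 for the APOL genes. Of the 25 genes responsive to interferon-γ and NF-κB, 20 were lower and 4 higher with vehicle. In the interaction 12 of these had a positive and 3 a negative difference. The shares of all genes in the other directions are not given here. These differences between lists were not tested. The summed level of the endothelial markers also fell in CAL27 cells, from 15.05 to 15.41 CPM down to 8.89 to 12.2, nearly all of it CDH5, with PECAM1 at no more than 0.0606 CPM and KDR at 0 with DOX. In HSC3 cells it was 0.268 to 0.821 CPM with vehicle and 0.175 to 0.397 with DOX. Fibroblast markers summed to 12.5 to 13.3 CPM with vehicle and 9.86 to 9.98 with DOX in CAL27 cells, and to 4.205 to 4.88 and 5.97 to 9.34 in HSC3 cells, most of it COL1A1. Immune cell markers summed to 7.21 to 7.97 and 6.25 to 8.38 CPM in CAL27 cells and to 2.40 to 3.14 and 0.337 to 2.204 in HSC3 cells. Their part in the APOL changes, and that of the squamous markers, was not tested.

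**Figure D5:**
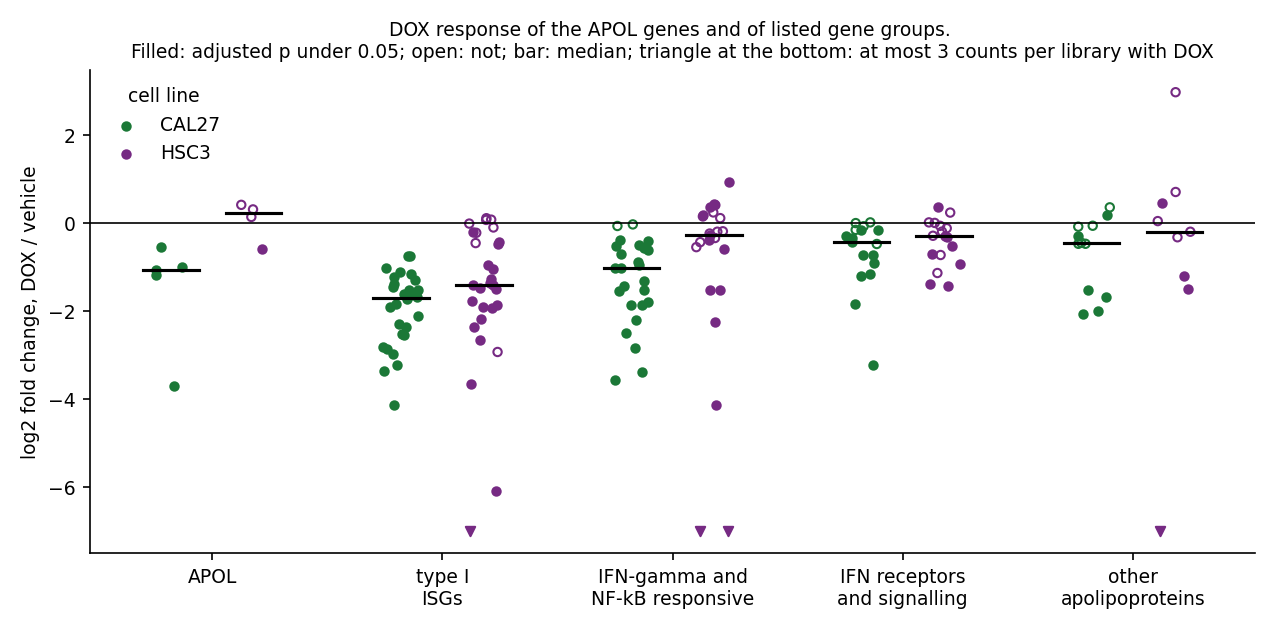
Log2 fold change with DOX of the APOL genes and of 4 gene lists in CAL27 and HSC3 cells, with 1 point for each gene tested. Filled points passed an adjusted p of 0.05, horizontal bars are medians, and triangles are genes with at most 3 counts in every DOX library, drawn at the bottom with no size. The APOL medians were -1.07 and 0.23, and those of the type I interferon-stimulated genes -1.71 and -1.39.

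The other genes listed with the apolipoproteins were mostly scarce in these cells. They hold plasma lipid carriers and also acute-phase proteins, the haptoglobin genes and the mitochondrial proteins APOO and APOOL. Of 22 listed, 12 were tested in CAL27 cells, where 5 fell and 1 rose with a median log2 fold change of -0.45. In HSC3 cells 9 were tested, where 3 fell and 1 rose with a median of -0.19. The shares of all genes were 21.8% lower in CAL27 cells, and 15.4% lower and 13% higher in HSC3 cells. The gene that rose was APOOL in both lines, by 0.18 in CAL27 and by 0.46 in HSC3 cells (log2, edgeR adjusted p = 0.0010 and 0.022). In CAL27 cells the acute-phase gene SAA2 went from 6.56 ± 1.11 to 1.67 ± 0.516 CPM (SD, n = 3), and APOD and SAA4 had at most 50 counts in any library. In HSC3 cells clusterin (CLU) went from 30.7 ± 0.697 to 13.5 ± 1.40 CPM (SD, n = 3; edgeR adjusted p = 1.0e-05), APOE from 1.11 ± 0.153 to 0.393 ± 0.0757, and APOC1 from 24 to 37 counts to 0. APOL3 is known to act with the Golgi lipid kinase PI4KB and its activators NCS1 and ARF1. Of the 4 listed partners, PI4KB and ARF1 rose by 0.18 each and NCS1 fell by 0.15 in CAL27 cells (log2), and in HSC3 cells ARF1 rose by 0.32 and NCS1 fell by 0.89.

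The genes with the most similar pattern were found by the Pearson correlation of log2 CPM over the 12 libraries, among 9234 genes whose log2 CPM averaged 3 or more. These points share the same 4 groups of libraries, so the line difference weighs in every value. For APOL1 the nearest were C3 (r = 0.998), ELF3 (r = 0.997) and GLUL (r = 0.996), and for APOL2 they were ADGRF1 (r = 0.997), PHLPP1 (r = 0.996) and KDM1A (r = 0.996). For APOL3 they were NUB1 (r = 0.995), CSF1 (r = 0.988) and IRF1 (r = 0.986). APOL6 had lower values and another set, with CD74 (r = 0.987), ARHGAP26 (r = 0.978) and SAMHD1 (r = 0.977). As an example, C3 went from 416 ± 14.7 to 150 ± 26.2 CPM (SD, n = 3) in CAL27 cells and from 9.07 ± 0.211 to 8.85 ± 1.60 in HSC3 cells, and CD74 from 179.7 ± 4.73 to 60.0 ± 10.0 and from 85.3 ± 2.92 to 44.8 ± 0.876.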

How the data were processed

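Total RNA was made into TruSeq Stranded mRNA libraries and aligned with STAR. The authors deposited whole-number counts per gene symbol, 1 table for each line, without normalization. The submitters' processing notes name STAR 2.7.9a, Subread 2.0.1 (featureCounts), FastQC 0.11.9 and GRCh38. The paper writes the build as GRCh38.74. Settings for strand and multiply mapped reads and the gene annotation used in counting are not given in the sources used here, so positions and lengths come from GENCODE v44.

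Counts were analysed in R 4.3.3 with edgeR 4.0.16 (TMM, filterByExpr at its minimum count of 10 and minimum total of 15, robust glmQLFit, two-sided glmQLFTest, Benjamini-Hochberg adjustment over all genes tested). DOX and vehicle were compared within each line, and the interaction and the vehicle groups in 1 fit of 12 libraries. Genes were called at an adjusted p under 0.05, with a fold change above 2 as a second criterion. Standard errors were derived from the log2 fold change and F. The fits were tested on simulated data. CAL27 DOX columns are numbered 4 to 6 and carry no replicate number of the labels. No replicate pair held identical values, with a chi-square of 7.71 to 141 per degree of freedom.

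The members and lists were chosen with earlier results of these data known. Named genes were the members, MUC1, STAT2, IRF1, IRF9, RBFOX2, MYH9, the 3 most changed called genes of each other list in each line, and for each member whose log2 CPM averaged 1 or more the 3 most correlated genes. Those of the cell type marker lists are given as sums, and 1 further gene of the rule is not reported here. Alternatives were median-ratio size factors, library totals, no filter, DESeq2 1.42.0, counts divided by counts per molecule, 1 fit over all libraries, a fold change of 1.5, the replicate block, the longest transcript and each library left out.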

Additional observations from a re-analysis of the deposited data

Results flagged for a closer look

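The response to DOX differed between the lines for 4 members by the interaction term over 12 libraries. The effect in HSC3 cells minus that in CAL27 cells was 1.21 for APOL1, 0.84 for APOL2, 1.42 for APOL3 and 0.58 for APOL6 on the log2 scale, each at an edgeR adjusted p under 0.05. These 4 calls and their directions were kept under every alternative that was run for them. APOL1, APOL2 and APOL3 started from a vehicle level in HSC3 cells that was lower than their DOX level in CAL27 cells, at 6.51 ± 0.422, 7.52 ± 1.75 and 7.47 ± 0.902 against 84.5 ± 8.202, 91.7 ± 5.82 and 16.8 ± 2.201 CPM (SD, n = 3). APOL6 did not, at 212 ± 13.1 against 166 ± 10.2 CPM. MUC1 itself fell less in HSC3 cells on the log2 scale, with an interaction of 1.36 (standard error 0.247, edgeR adjusted p = 0.0010). It had 162 to 196 counts with vehicle and 16 to 46 with DOX there. The parts of the APOL vehicle level and of the MUC1 change in the difference were not tested.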

How the results depend on the processing

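No APOL value included here reversed, and APOL4 was included for the DOX response in CAL27 cells only. All 60 CAL27, 68 interaction and 68 vehicle values of members under the alternatives kept their direction and side of the adjusted p threshold, as did 44 of 52 in HSC3 cells. The other 8 were in APOL3 and APOL2, which passed it. APOL3 was 0.43 with median-ratio size factors, with DESeq2 (adjusted p = 0.021) and with counts per molecule, 0.42 with no filter and 0.42 in 1 fit over 12 libraries. APOL2 was 0.32 in that fit (edgeR adjusted p = 0.048). Leaving out each library gave 0.30 to 0.52 for APOL3 and 0.18 to 0.52 for APOL2. The cause was not tested.

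Genes lower in CAL27 cells past 2-fold numbered 984, and 568 in 1 fit over 12 libraries. In HSC3 cells that fit gave 1237 lower and 545 higher against 793 and 284. A fold change of 1.5 gave 1848 lower and 714 higher for CAL27, and 1514 lower and 798 higher for HSC3. APOL3 in CAL27 cells fell short of 2-fold with no filter, in 1 fit over 12 libraries, and without vehicle library 3 or DOX library 6, which left 3 members past it instead of 4. Without HSC3 vehicle library 1 the interaction had 3 members past 2-fold instead of 2, and with library totals all 5 were past it in the vehicle comparison, where APOL6 was -1.08.

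With the longest transcript, CAL27 vehicle levels were 58.8, 49.1, 9.26 and 0.229 CPM per kb for APOL1, APOL2, APOL3 and APOL4, and HSC3 vehicle levels 2.17, 2.80 and 2.06 for APOL1, APOL2 and APOL3.

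With the replicate number as a block, HSC3 log2 fold changes were 0.15, 0.34, 0.42 and -0.59 for APOL1, APOL2, APOL3 and APOL6, with no change of call for a member, and 753 genes were lower and 252 higher past 2-fold. Deviations from the group means had r of -0.20, 0.35 and -0.34 in same-numbered HSC3 libraries and of -0.44 to 0.48 in differently numbered ones. With deviations from means of 3 libraries, this shows no pairing by number and cannot exclude it. For CAL27 cells and for the interaction no paired fit could be made, because the CAL27 DOX columns carry no replicate number. With a floor of 3 molecules in place of 3 counts, chosen after seeing the data, the bound for APOL4 went from 26.8 to 4.40. Promoter motifs and protein identity were not analysed here.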

Other observations

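APOL5, the remaining member of the family in these tables, had 4 counts in 1 CAL27 vehicle library, 1 count in 1 CAL27 DOX library and 0 in the other 10 libraries. APOLD1, which shares part of the family's name and lies elsewhere in the genome, was at 5.72, 6.34 and 5.52 CPM in the CAL27 vehicle libraries and at 6.40, 6.61 and 7.30 in the DOX libraries. The HSC3 libraries had 4.97, 4.83 and 5.35 CPM under vehicle against 5.04, 4.44 and 5.41 under DOX, and there the groups overlapped.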
